A study of Mus musculus with 21 samples.

Results

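Macrophages loaded with fatty acid and then exposed to lipopolysaccharide (LPS, a membrane component of Gram-negative bacteria) were set against macrophages that received neither. The cells were grown from the bone marrow of chow-fed C57Bl6/J mice, 24 weeks of age per the labels, which give the same time on the diet, in RPMI-1640 with 10% FCS and 30% L929 supernatant, a usual source of the growth factor M-CSF. Pretreated cultures held 10 mM fatty acid, with palmitic and oleic acid at 1:3, for the first 4 days, were washed 3 times in PBS, and received 100 ng/ml LPS for 24 h from day 7. LPS-alone cultures received the same LPS without fatty acid, and untreated cultures received neither agent; each group had 3 libraries. The members are the 3 pretreated and 3 untreated libraries, 6 of the 12 in the fatty acid table and of 21 in the series, chosen by their labels. No group received fatty acid without LPS, so in this comparison the contributions of the 2 agents cannot be told apart, and the LPS-alone libraries serve as the second point of comparison. The labels do not say whether replicates were separate animals or separate cultures, so p-values measure the spread between these libraries, which may be technical.

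LPS is bound by CD14 and by TLR4 with MD-2. One signalling branch runs through MYD88 to NF-kB and raises cytokines and neutrophil-attracting chemokines within hours. The other runs through TRIF to IRF3 and interferon beta, whose receptor activates STAT family factors and raises the interferon-stimulated genes. Inhibitors such as A20, interleukin 10 and the interleukin 1 receptor antagonist then restrain the response, and macrophages stop dividing.

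The promoters below belong to genes on which the results turn. They show the 100 bases before the RefSeq start in GRCm38.p6, 5′ to 3′ on the gene's strand. In the first 3, which belong to chemokine genes that were strongly raised by LPS alone and far lower in pretreated cultures, capitals mark the NF-kB-like motif (GGG, any 2 bases, TTTCC) on either strand.
Cxcl1 (chr5:90891145-90891244, plus strand): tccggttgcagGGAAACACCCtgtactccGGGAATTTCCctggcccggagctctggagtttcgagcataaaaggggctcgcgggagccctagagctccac
Cxcl2 (chr5:90903799-90903898, plus strand): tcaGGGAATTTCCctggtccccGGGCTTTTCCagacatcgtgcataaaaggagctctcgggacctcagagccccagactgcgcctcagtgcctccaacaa
Cxcl3 (chr5:90786001-90786100, plus strand): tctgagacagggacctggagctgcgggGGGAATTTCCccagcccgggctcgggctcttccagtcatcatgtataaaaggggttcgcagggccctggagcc

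In the next 3, which belong to interferon-inducible genes that were high in pretreated cultures, capitals mark the core of the interferon-stimulated response element (GAAA, any 2 bases, GAAA) on either strand. The 3 matches in Isg15 overlap one another.
Isg15 (chr4:156200819-156200918, minus strand): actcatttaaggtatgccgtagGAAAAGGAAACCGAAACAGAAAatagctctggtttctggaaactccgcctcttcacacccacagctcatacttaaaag
Gbp2 (chr3:142620563-142620662, plus strand): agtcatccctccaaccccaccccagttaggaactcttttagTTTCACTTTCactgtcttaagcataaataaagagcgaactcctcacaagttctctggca
Tgtp1 (chr11:48992247-48992346, minus strand): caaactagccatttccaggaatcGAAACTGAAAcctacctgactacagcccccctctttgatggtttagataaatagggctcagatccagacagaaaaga

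The last pair belongs to mitotic genes that fell, and capitals mark TTTGAA, the cell cycle homology region, on either strand.
Ube2c (chr2:164769829-164769928, plus strand): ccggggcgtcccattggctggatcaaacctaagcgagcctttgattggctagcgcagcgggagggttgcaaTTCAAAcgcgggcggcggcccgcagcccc
Top2a (chr11:99024190-99024289, minus strand): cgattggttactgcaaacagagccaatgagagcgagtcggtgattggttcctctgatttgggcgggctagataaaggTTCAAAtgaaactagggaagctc

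A RefSeq promoter was at hand for 7706 of the 10476 genes tested, and motifs were counted on either strand in its whole window, which reaches from upstream of the start to just inside the gene. The NF-kB-like motif lay in 3 of 5 neutrophil-attracting chemokine genes and in 2.01% of all 7706 promoters. The response element core lay in 26 of 48 interferon-stimulated genes and in 9 of 10 genes of guanylate-binding proteins and immunity-related GTPases, against 4.27% of all promoters; it lay in 1 of 4 interferon-inducible chemokine genes. TTTGAA lay in 24 of 31 mitosis genes, in 12 of 48 interferon-stimulated genes and in 5 of 10 of the GTPase genes, against 14.9% of all promoters. The sterol element, searched by name in cholesterol synthesis genes, lay in 0 of 17 and in 0.0519% of all promoters. A match describes letters and not a site of binding.

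Levels are the deposited values, and changes and differences are in log2 units of value + 1. Library sums of the deposited values, whose unit the sources used here do not name, lay between 321532 and 386023 over the 12 libraries. Between 9226 and 10145 genes reached a value of 1. The macrophage genes Adgre1 and Itgam, which encode F4/80 and CD11b, were expressed in every library. Adgre1 stood at 1721, 1737 and 1591 in pretreated cultures, 1048, 1399 and 1439 with LPS alone and 367, 345 and 364 in untreated cultures. Itgam, whose exons overlap Gm49368, stood at 675, 655 and 647 in pretreated cultures, 343, 457 and 484 with LPS alone and 203, 227 and 201 in untreated cultures. LPS replicate 1 stood apart from the other LPS-alone libraries, with higher cytokine and lower interferon-stimulated values. For a part of the named differences from LPS alone, the value without 1 LPS-alone library follows. Differences given without such a value could move as well.

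Over the 10476 genes that reached 1 in at least 3 libraries, 6295 (60.1%) differed between pretreated and untreated cultures at an adjusted p under 0.05 (limma on log2(value + 1), Benjamini-Hochberg). Of these, 1591 (15.2%) were higher in pretreated cultures and 4704 (44.9%) lower, and 692 and 1426 of them moved at least 2-fold. Leaving out each compared library in turn kept 5222 of the 6295 calls. The values of 68.6% of all genes tested did not overlap between the 3 pretreated and the 3 untreated libraries. The median log2 change over all genes was -0.26, and median-ratio scaling between libraries moved it by 0.26, after which 2858 genes were higher and 3052 lower. Small falls are to be read against that shift. For LPS alone against untreated, which shares the untreated libraries, 6463 genes passed (61.7%), 1444 higher (13.8%) and 5019 lower (47.9%), with a median of -0.31. Pretreated against LPS-alone cultures gave 3893 calls (37.2%), 2286 higher (21.8%) and 1607 lower (15.3%), with a median of 0.06.

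**Figure D1:**
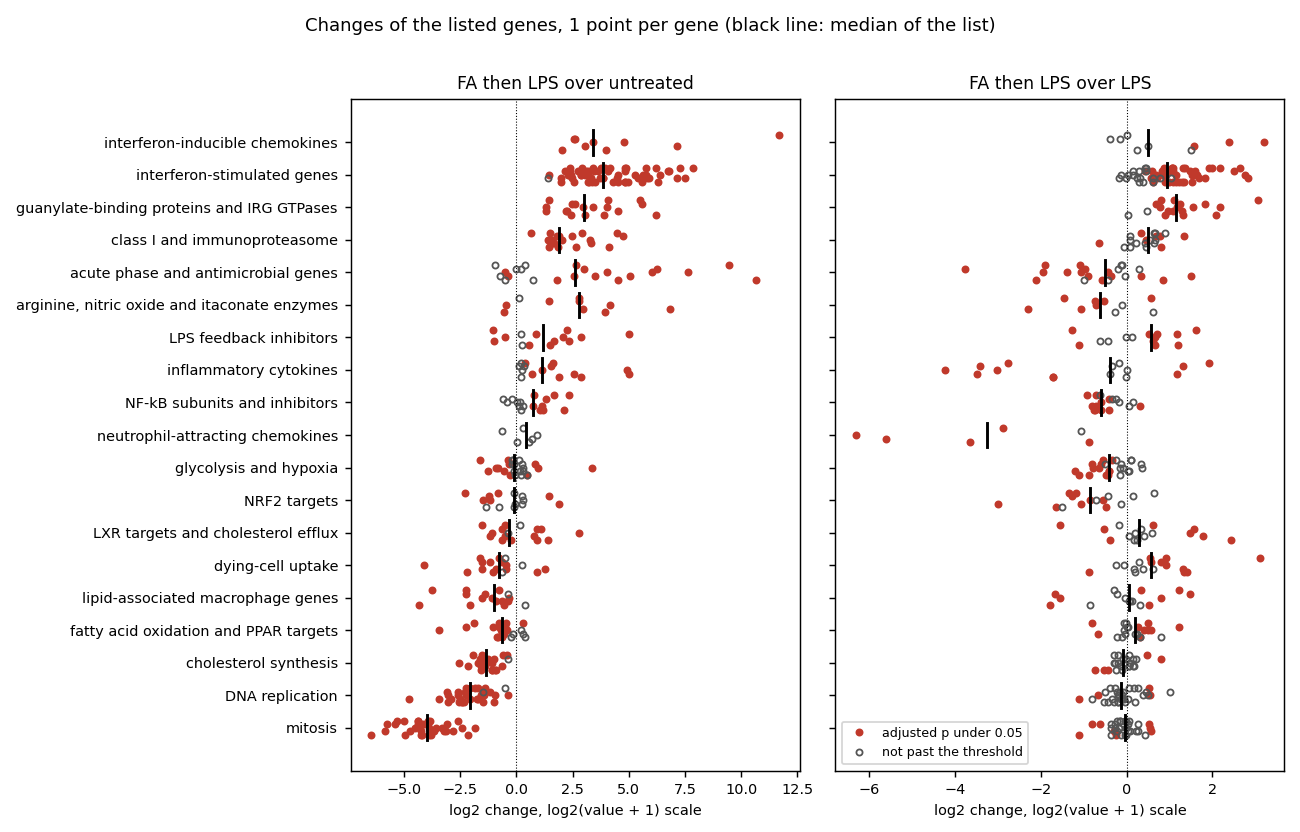
Log2 changes of listed genes on the log2(value + 1) scale, pretreated over untreated on the left and pretreated over LPS alone on the right; each point is a gene, filled where its adjusted p is under 0.05, and black lines are medians. Interferon-stimulated genes have medians of 3.83 on the left and 0.94 on the right, neutrophil-attracting chemokines lie near 0 on the left and at a median of -3.26 on the right, and mitosis genes lie at a median of -3.99 on the left.

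The chemokine genes that interferon induces were high in pretreated cultures. All 9 tested genes of that list rose over untreated cultures, with a median log2 change of 3.41, while 9 rose with LPS alone (median 2.57). Over all genes tested, 15.2% rose with pretreatment and 13.8% with LPS alone. Ccl5 (chromosome 11, 83525778 to 83530518 in GRCm38), a chemokine for T cells and monocytes, had the largest rise among the genes the naming rule took. It stood at 7141, 5906 and 3102 in pretreated cultures, 3495, 5431 and 6705 with LPS alone and 0.557, 0.419 and 0.645 in untreated cultures. The change over untreated was 11.69 log2 units (95% interval 11.04 to 12.34, adjusted p = 2.95e-10), and against LPS alone the difference was 0.01 log2 units (95% interval -0.64 to 0.66, adjusted p = 0.977). Cxcl10, a ligand of the chemokine receptor CXCR3 on T cells, stood at 187, 147 and 132 in pretreated cultures, 24.1, 58.5 and 92.8 with LPS alone and 0.0162, 0.181 and 0.102 in untreated cultures. Each pretreated value lay above each LPS-alone value, a difference of 1.58 log2 units (adjusted p = 0.00861), and of 1.05 without LPS replicate 1. Ccl8, a monocyte chemokine, stood at 36.3, 33.9 and 37.5 in pretreated cultures, 0.9902, 2.82 and 7.35 with LPS alone and 0.411, 0.172 and 0.416 in untreated cultures, and exceeded LPS alone by 3.21 log2 units (adjusted p = 0.000556).

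Interferon-stimulated genes rose in 62 of 63 tested members over untreated cultures. Their median change was 3.83, beside 2.86 for LPS alone, where 62 rose. The shares of all genes tested that rose were 15.2% with pretreatment and 13.8% with LPS alone. Set directly against LPS alone, 45 were higher in pretreated cultures, where 21.8% of all genes were, with a median difference of 0.94. Mx1, an antiviral GTPase, stood at 159, 139 and 227 in pretreated cultures, 11.2, 31.1 and 52.9 with LPS alone and 0.0769, 0.134 and 0.1603 in untreated cultures. The lowest pretreated value was above the highest LPS-alone value, and the difference was 2.64 log2 units (95% interval 1.69 to 3.6, adjusted p = 0.00157), or 2.05 without LPS replicate 1. Ifit2, which binds foreign RNA, stood at 53.6, 47.99 and 46.9 in pretreated cultures, 2.23, 6.62 and 13.3 with LPS alone and 0.146, 0.232 and 0.181 in untreated cultures. The difference of Ifit2 from LPS alone was 2.84 log2 units (adjusted p = 0.000801), or 2.27 without LPS replicate 1 and 3.35 without LPS replicate 3. Irf7, the factor that amplifies interferon production, reached 404, 347 and 345 in pretreated and 144, 254 and 367 in LPS-alone cultures, against 0.889, 1.13 and 1.09 in untreated cultures. Its rise over untreated was 7.49 log2 units (adjusted p = 2.02e-09), while the difference from LPS alone did not pass (0.61 log2 units, 95% interval 0.06 to 1.17, adjusted p = 0.0777; 0.92, adjusted p = 0.00452, without LPS replicate 3). The ubiquitin-like modifier gene Isg15 rose by 7.13 log2 units (adjusted p = 8.53e-09) and stood at 402, 366 and 338 in pretreated cultures, against 1.95, 1.63 and 1.35 in untreated cultures. Among other leading rises, Ms4a4c changed by 9.01 and Ifi205, a member of the DNA-binding IFI200 family, by 7.84 log2 units (adjusted p = 1.38e-07 and 2.39e-09); both have close paralogs, between which the counting could split reads. The cytosolic nucleic acid sensor gene Zbp1 rose by 6.29 log2 units (adjusted p = 5.46e-10) and the oligoadenylate synthetase-like gene Oasl1 by 5.81 log2 units (adjusted p = 2.31e-09).

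Guanylate-binding proteins and immunity-related GTPases attack the vacuoles of intracellular microbes. All 18 tested members rose over untreated cultures (median 3.01), 16 did so with LPS alone (median 1.84), and 16 were higher in pretreated than in LPS-alone cultures. The shares of all genes tested in these 3 counts were 15.2%, 13.8% and 21.8%. Gbp2 stood at 291, 262 and 246 in pretreated cultures, 70.1, 114 and 147 with LPS alone and 2.72, 2.31 and 2.77 in untreated cultures. The groups did not overlap, and Gbp2 exceeded LPS alone by 1.32 log2 units (95% interval 0.84 to 1.81, adjusted p = 0.00167). Gbp5, which promotes inflammasome assembly, rose by 5.59 log2 units (adjusted p = 5.40e-09) over untreated and exceeded LPS alone by 1.24 log2 units (adjusted p = 0.00215). Tgtp1, an immunity-related GTPase with near-identical copies and therefore of uncertain level, stood at 26.9, 6.33 and 27.7 in pretreated cultures, 0.469, 1.28 and 1.97 with LPS alone and 0.0525, 0.0407 and 0.118 in untreated cultures. Of its pretreated values replicate 2 was the low one, and all of them lay above the LPS-alone values. These gene families share near-identical sequence, so single members carry that limit.

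IRF and STAT factors drive these genes. Of 16 tested genes of these factors, 9 rose and 2 fell over untreated cultures, and the counts for LPS alone were 9 and 2. Among all genes tested, 15.2% rose and 44.9% fell with pretreatment, and 13.8% rose and 47.9% fell with LPS alone. Irf9, the DNA-binding subunit of the factor complex that type I interferon activates, rose by 1.43 log2 units (adjusted p = 6.35e-07) over untreated and differed from LPS alone by 0.14 log2 units (95% interval -0.09 to 0.37, adjusted p = 0.313); its exons overlap Rnf31. Ifnb1, the interferon beta gene, was listed at 0 in all 12 libraries. It has no intron, and of 1071 intronless protein-coding genes, chemosensory receptors left out, 40 (3.73%) passed the filter, against 9324 of 19176 (48.6%) with introns. A value of 0 for such a gene does not show that it was silent.

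Genes that present antigen to CD8 T cells rose. All 20 tested class I and immunoproteasome genes rose over untreated cultures with a median of 1.88, and all 20 rose with LPS alone (median 1.82). Set against LPS alone, 6 of the 20 were higher, 1 was lower and 13 did not pass, where 21.8% of all genes tested were higher and 15.3% lower. B2m, the class I light chain, stood at 4791, 4577 and 4395 in pretreated cultures, 1964, 2843 and 3326 with LPS alone and 863, 807 and 793 in untreated cultures. Its pretreated values were all above those with LPS alone (difference 0.79 log2 units, adjusted p = 0.00391, or 0.58 without LPS replicate 1). The proteasome activator gene Psme2 rose by 2.02 log2 units (adjusted p = 5.80e-08) over untreated. Class II genes, which present to CD4 T cells, rose in 4 of 7 with either treatment, where 15.2% and 13.8% of all genes tested rose. In fits of the 6 compared libraries, 6 rose with pretreatment and 4 with LPS alone. After median-ratio scaling 6 rose with pretreatment, where 2858 of all 10476 genes tested did. H2-Ab1, a class II beta chain, stood at 10.6, 8.18 and 6.22 in pretreated cultures, 20.6, 26.5 and 22.9 with LPS alone and 0.621, 0.522 and 0.644 in untreated cultures. It was raised over untreated by 2.52 log2 units (adjusted p = 2.83e-07) and was lower than with LPS alone in every pretreated library (-1.4 log2 units, adjusted p = 0.000441). The checkpoint ligand gene Cd274, which encodes PD-L1, rose by 4.21 log2 units (adjusted p = 1.36e-09) and exceeded LPS alone by 0.73 log2 units (adjusted p = 0.00251). Cd40, a costimulatory receptor gene, rose by 2.79 log2 units (adjusted p = 2.01e-07). Of 11 tested costimulatory and checkpoint genes, 6 rose and 4 fell over untreated, against 6 and 5 with LPS alone. Over all genes tested, 15.2% rose and 44.9% fell with pretreatment.

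**Figure D2:**
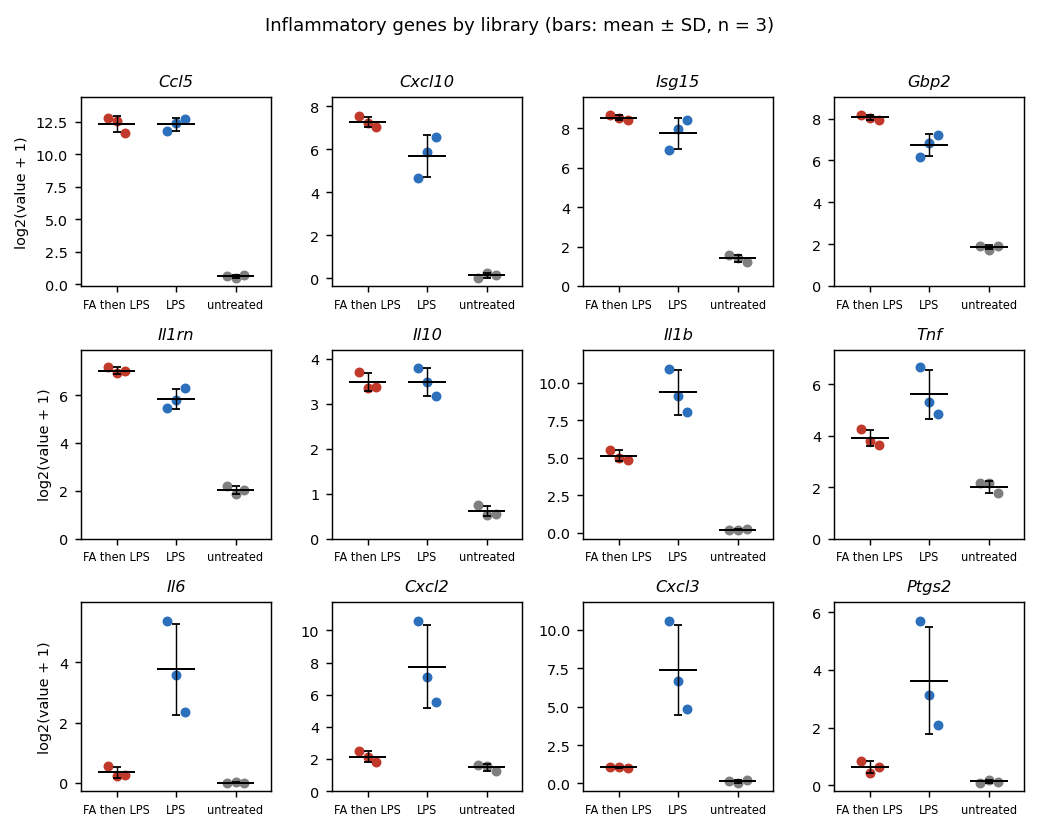
Log2(value + 1) of 12 inflammatory genes in each library, with pretreated, LPS-alone and untreated groups from left to right; points are libraries, horizontal bars means and error bars SDs (n = 3). Ccl5 and Il10 overlap between the 2 LPS groups, Gbp2 and Il1rn are higher in pretreated cultures, and Il6, Cxcl2, Cxcl3 and Ptgs2 of pretreated cultures lie nearer the untreated than the LPS-alone level.

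Acute phase and antimicrobial genes stayed raised in part. Of 22 tested, 13 rose over untreated cultures, against 17 that rose with LPS alone, and 12 were lower and 3 higher in pretreated than in LPS-alone cultures. Of all genes tested, 15.3% were lower and 21.8% higher in pretreated than in LPS-alone cultures. The shares that rose over untreated were 15.2% with pretreatment and 13.8% with LPS alone. Saa3 (chromosome 7, 46711998 to 46715700), a serum amyloid A gene of macrophages, stood at 14278, 13325 and 12973 in pretreated cultures, 27837, 49516 and 14007 with LPS alone and 8.16, 6.71 and 7.24 in untreated cultures. All values with LPS lay far above the untreated ones, and the difference between the LPS groups did not pass (-0.99 log2 units, 95% interval -2.14 to 0.17, adjusted p = 0.1597; -1.46, adjusted p = 0.0456, without LPS replicate 3). Lcn2, which withholds iron from bacteria, rose by 7.63 log2 units (95% interval 7.06 to 8.2, adjusted p = 2.11e-09) and haptoglobin, Hp, by 6.05 log2 units (adjusted p = 3.59e-10). Both were lower than with LPS alone, at -1.06 and -1.38 log2 units (adjusted p = 0.00919 and 0.000347). The complement factor B gene Cfb, whose exons overlap Gm20547, rose by 9.46 log2 units (adjusted p = 2.43e-11), and complement C3 by 6.24 log2 units (adjusted p = 7.81e-10). Saa1 ran the other way between the LPS groups: it was listed at 0 in the 3 untreated libraries and stood at 5.73, 4.55 and 4.44 in pretreated and 0.239, 1.26 and 2.11 in LPS-alone cultures (difference 1.51 log2 units, adjusted p = 0.00171). Slpi, a protease inhibitor gene, stood at 18.5, 15.4 and 15.6 in pretreated cultures, 1388, 151 and 63.2 with LPS alone and 1.31, 1.04 and 1.28 in untreated cultures. Its level in pretreated cultures was above untreated (2.98 log2 units, 95% interval 1.15 to 4.82, adjusted p = 0.00928) and below LPS alone (-3.77 log2 units, adjusted p = 0.005898, and -2.5 without LPS replicate 1 and -4.72 without LPS replicate 3; replicate 1 was far above the others).

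Enzymes of arginine, nitric oxide and itaconate metabolism shape macrophage killing and restraint. Of 10 tested members, 7 rose with pretreatment (median 2.78) and 7 with LPS alone (median 3.32), where 15.2% and 13.8% of all genes tested rose. Against LPS alone 6 were lower and 1 higher, where 15.3% and 21.8% of all genes tested were. Acod1, the itaconate synthase gene, stood at 198, 171 and 136 in pretreated cultures, 379.6, 335 and 329 with LPS alone and 0.4803, 0.478 and 0.389 in untreated cultures. It was raised over untreated in both groups and lower with pretreatment, at -1.06 log2 units (adjusted p = 0.000556). Arg1, the cytosolic arginase gene, stood at 53.7, 40.9 and 50.98 in pretreated cultures, 85.2, 70.6 and 85.9 with LPS alone and 1.74, 1.896 and 1.59 in untreated cultures, with a difference from LPS alone of -0.72 log2 units (adjusted p = 0.001202). Nos2, the inducible nitric oxide synthase gene, was listed at 0 in the 3 untreated libraries. It stood at 19.5, 12.3 and 12.8 in pretreated and 4.38, 9.57 and 17.3 in LPS-alone cultures, which overlapped (0.62 log2 units, 95% interval -0.17 to 1.4, adjusted p = 0.194; 1.04, adjusted p = 0.0155, without LPS replicate 3). The arginine transporter gene Slc7a2 rose by 2.96 log2 units (adjusted p = 0.0001705) over untreated and was lower than with LPS alone, at -2.3 log2 units (adjusted p = 0.00328), or -2.9 without LPS replicate 3.

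Most tested genes that restrain the response rose. Of 20 listed feedback genes, Socs1, Socs2, Cish, Dusp5, Nlrp12 and Sigirr did not pass the filter. Of the 14 tested, 9 rose and 3 fell over untreated cultures (median 1.19), against 8 and 3 with LPS alone (median 0.47). Among all genes tested, 15.2% rose and 44.9% fell with pretreatment, and 13.8% rose and 47.9% fell with LPS alone. Il1rn, which encodes the interleukin 1 receptor antagonist, stood at 145, 119.7 and 127 in pretreated cultures, 42.98, 55.2 and 77.9 with LPS alone and 3.62, 2.62 and 3.08 in untreated cultures. Its groups did not overlap, and it exceeded LPS alone by 1.18 log2 units (95% interval 0.75 to 1.61, adjusted p = 0.00165). Il10, the anti-inflammatory cytokine gene, stood at 11.98, 9.13 and 9.38 in pretreated cultures, 12.9, 10.2 and 8.01 with LPS alone and 0.667, 0.445 and 0.459 in untreated cultures. The 2 LPS groups overlapped, with a difference of -0.01 log2 units (95% interval -0.37 to 0.35, adjusted p = 0.965). Il4ra, the shared receptor chain of interleukins 4 and 13 (overlapped by Gm44876), rose by 2.25 log2 units (adjusted p = 2.03e-06) and exceeded LPS alone by 1.63 log2 units (adjusted p = 0.000418). Zfp36, whose product destabilises cytokine mRNA, stood at 6.38, 5.35 and 5.78 in pretreated cultures, 2.04, 1.66 and 2.196 with LPS alone and 1.42, 1.18 and 1.599 in untreated cultures, and Dusp1, a phosphatase of stress kinases (overlapped by Ergic1), rose by 2.07 log2 units (adjusted p = 2.43e-07). Both were higher than with LPS alone, by 1.21 and 0.66 log2 units (adjusted p = 0.000207 and 0.00405). Socs3, an inhibitor of interleukin 6 and interleukin 10 signalling, stood at 0.434, 0.201 and 0.0846 in pretreated cultures, 1.66, 1.87 and 1.48 with LPS alone and 0.0138, 0.105 and 0 in untreated cultures, so pretreated and untreated values overlapped. Its change over untreated was 0.25 log2 units (95% interval -0.02 to 0.52, adjusted p = 0.105), or 0.34 (adjusted p = 0.0483) without pretreated replicate 3, and it was lower than with LPS alone, at -1.11 log2 units (adjusted p = 0.000315).

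At the receptor, Cd14 stood at 21, 18.1 and 15.6 in pretreated cultures, 157, 98.2 and 60.03 with LPS alone and 7.27, 7.79 and 7.21 in untreated cultures. Pretreated values were above untreated (1.18 log2 units, adjusted p = 0.00642) and below LPS alone (-2.37 log2 units, 95% interval -3.05 to -1.69, adjusted p = 0.000598). Tlr4 stood at 2.697, 2.74 and 2.98 in pretreated cultures, 1.701, 1.52 and 1.94 with LPS alone and 4.27, 4.31 and 4.63 in untreated cultures. It was lower than untreated, at -0.51 log2 units (adjusted p = 0.000197), or -0.25 after median-ratio scaling, and higher than with LPS alone by 0.48 log2 units (adjusted p = 0.00148). Ly96, which encodes the TLR4 partner MD-2, rose by 1.02 log2 units (adjusted p = 2.26e-06), and the adaptor gene Myd88, overlapped by Acaa1a, by 1.54 log2 units (adjusted p = 5.22e-07). Ly86, which encodes the RP105 partner MD-1, stood at 111, 114 and 98.2 in pretreated cultures, 17.99, 41.8 and 57.8 with LPS alone and 50.2, 42.3 and 45.4 in untreated cultures. With pretreatment Ly86 exceeded LPS alone by 1.58 log2 units (adjusted p = 0.00375), or by 1.11 without LPS replicate 1 and 1.93 without LPS replicate 3. Of 17 tested genes of NF-kB subunits and inhibitors, 9 rose over untreated (median 0.73), and 12 rose with LPS alone (median 1.09). The shares of all genes tested that rose were 15.2% and 13.8%. After scaling 13 rose with pretreatment, where 2858 of all 10476 genes tested did. Against LPS alone, 10 were lower, as were 15.3% of all genes tested. Nfkbia, the inhibitor that NF-kB itself induces, stood at 125, 99.2 and 89.6 in pretreated cultures, 179, 185 and 158 with LPS alone and 24.4, 22.98 and 21.6 in untreated cultures, with a rise over untreated of 2.12 log2 units (adjusted p = 1.99e-07) and a difference from LPS alone of -0.74 log2 units (adjusted p = 0.00247). Nfkbiz, a nuclear cofactor for secondary response genes, rose by 2.33 log2 units (adjusted p = 5.33e-07) and was lower than with LPS alone, at -0.93 log2 units (adjusted p = 0.00231).

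In the fit of all 12 libraries, inflammatory cytokine genes split into those that rose over untreated and those whose change did not pass. Of 15 tested, 10 rose over untreated (median 1.15), against 13 with LPS alone (median 2.88). In fits of the 6 compared libraries, 13 rose with pretreatment and 12 with LPS alone. Over all genes tested, 15.2% rose with pretreatment and 13.8% with LPS alone. Set against LPS alone 7 were lower and 3 higher, where 15.3% and 21.8% of all genes tested were. Il1b (chromosome 2, 129364570 to 129371139), which encodes interleukin 1 beta, stood at 45.1, 30.7 and 28.2 in pretreated cultures, 1987, 543 and 262 with LPS alone and 0.142, 0.103 and 0.193 in untreated cultures. Its change over untreated was 4.93 log2 units (95% interval 3.57 to 6.29, adjusted p = 4.14e-05), and the difference from LPS alone was -4.23 log2 units (adjusted p = 0.000941), or -3.44 without LPS replicate 1 and -4.89 without LPS replicate 3. Tnf, the tumour necrosis factor gene, stood at 17.9, 12.9 and 11.5 in pretreated cultures, 101, 38.97 and 27.3 with LPS alone and 3.404, 3.42 and 2.37 in untreated cultures. Pretreated values lay between the other groups with no overlap, at 1.88 log2 units (95% interval 1.03 to 2.74, adjusted p = 0.00148) over untreated and -1.71 log2 units (adjusted p = 0.00665) against LPS alone. The difference of Tnf from LPS alone was -1.18 without LPS replicate 1 and -2.1 without LPS replicate 3. Il15, which sustains natural killer and memory T cells, stood at 22.7, 21.5 and 20.4 in pretreated cultures, 1.84, 6.02 and 9.697 with LPS alone and 6.85, 6.51 and 5.91 in untreated cultures, and exceeded untreated by 1.6 log2 units (adjusted p = 0.00279) and LPS alone by 1.92 log2 units (adjusted p = 0.00302). Il18, an interferon gamma-inducing cytokine gene, rose by 1.55 log2 units (adjusted p = 0.000496) over untreated. It exceeded LPS alone by 1.32 log2 units (adjusted p = 0.00414), or by 0.91 without LPS replicate 1 and 1.61 without LPS replicate 3.

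Il6, a cytokine gene that drives the acute phase response, stood at 0.471, 0.1699 and 0.191 in pretreated cultures, 40.3, 10.99 and 4.11 with LPS alone and 0, 0.01798 and 0 in untreated cultures. The change over untreated was 0.34 log2 units (95% interval -0.99 to 1.66, adjusted p = 0.654), and the difference from LPS alone was -3.42 log2 units (95% interval -4.75 to -2.1, adjusted p = 0.00215), or -2.62 without LPS replicate 1 and -4.13 without LPS replicate 3. Il12b, which encodes the shared chain of interleukins 12 and 23, stood at 0.211, 0.179 and 0.114 in pretreated cultures, 3.52, 3.36 and 1.801 with LPS alone and 0, 0.0225 and 0.0181 in untreated cultures. It changed by 0.2 log2 units (95% interval -0.17 to 0.57, adjusted p = 0.318) over untreated and was lower than with LPS alone, at -1.71 log2 units (adjusted p = 0.000207).

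The neutrophil-attracting chemokine genes Cxcl1, Cxcl2 and Cxcl3 were far nearer the untreated than the LPS-alone level in pretreated cultures. Their list also holds the CXCR2 ligands Ppbp and Cxcl5, with Ccl3 and Ccl4, which act on monocytes and lymphocytes as well. Cxcl5 did not pass the filter and was not tested. Of 6 tested, limma on the 12 libraries called 0 over untreated, and 1 (Ccl4) had an unadjusted p under 0.05. With LPS alone 5 rose (median 3.42), and 5 were lower with pretreatment than with LPS alone (3 in a fit of the 6 pretreated and LPS-alone libraries). Over all genes tested, 13.8% rose with LPS alone and 15.3% were lower with pretreatment than with LPS alone. Cxcl1 stood at 0.0585, 0.0144 and 0.0163 in pretreated cultures, 117, 5.73 and 1.66 with LPS alone and 0.03601, 0 and 0 in untreated cultures. Pretreated and untreated values overlapped (0.03 log2 units, 95% interval -2.23 to 2.28, adjusted p = 0.987), and the difference from LPS alone was -3.64 log2 units (adjusted p = 0.0175), or -2.04 without LPS replicate 1 and -4.78 without LPS replicate 3. Cxcl2 stood at 4.75, 3.35 and 2.49 in pretreated cultures, 1574, 134 and 46.3 with LPS alone and 2.02, 2.01 and 1.33 in untreated cultures, and Cxcl3 at 1.11, 1.13 and 1.02 in pretreated cultures, 1531, 102 and 28.2 with LPS alone and 0.136, 0.0216 and 0.1497 in untreated cultures. In both, every pretreated value lay above every untreated value and far below every LPS-alone value. Their changes over untreated were 0.68 log2 units (95% interval -1.44 to 2.81, adjusted p = 0.567) for Cxcl2 and 0.92 log2 units (95% interval -1.43 to 3.28, adjusted p = 0.479) for Cxcl3, and their differences from LPS alone -5.6 and -6.32 log2 units (adjusted p = 0.00194 and 0.00179). For Cxcl2 the difference from LPS alone was -4.17 without LPS replicate 1 and -6.7 without LPS replicate 3, and for Cxcl3 it was -4.71 without LPS replicate 1 and -7.57 without LPS replicate 3.

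These wide intervals use a spread shared by all 12 libraries, and LPS replicate 1 lay far above the other LPS-alone libraries in Cxcl1, Cxcl2, Cxcl3, Il6, Ptgs2 and Slc7a11. In a fit of the 6 compared libraries the same changes over untreated passed for Cxcl3 (adjusted p = 5.13e-05), Cxcl2 (0.0206), Il6 (0.0217), Il12b (0.0258), Ptgs2 (0.00644) and Ccl4 (0.00786), and not for Cxcl1 (adjusted p = 0.734), Socs3 (0.0954) or Slc7a11 (0.0903). In that fit 4 neutrophil-attracting chemokine genes rose and 1 fell. With a pseudocount of 0.1 in place of 1, the changes over untreated were larger, at 2.62 for Cxcl3 (adjusted p = 0.0604), 1.75 for Il6 (0.0589), 1.74 for Ptgs2 (0.0742), 1.22 for Socs3 (0.0229) and 1.23 for Il12b (0.00272), since values this low are compressed on the log2(value + 1) scale.

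**Figure D3:**
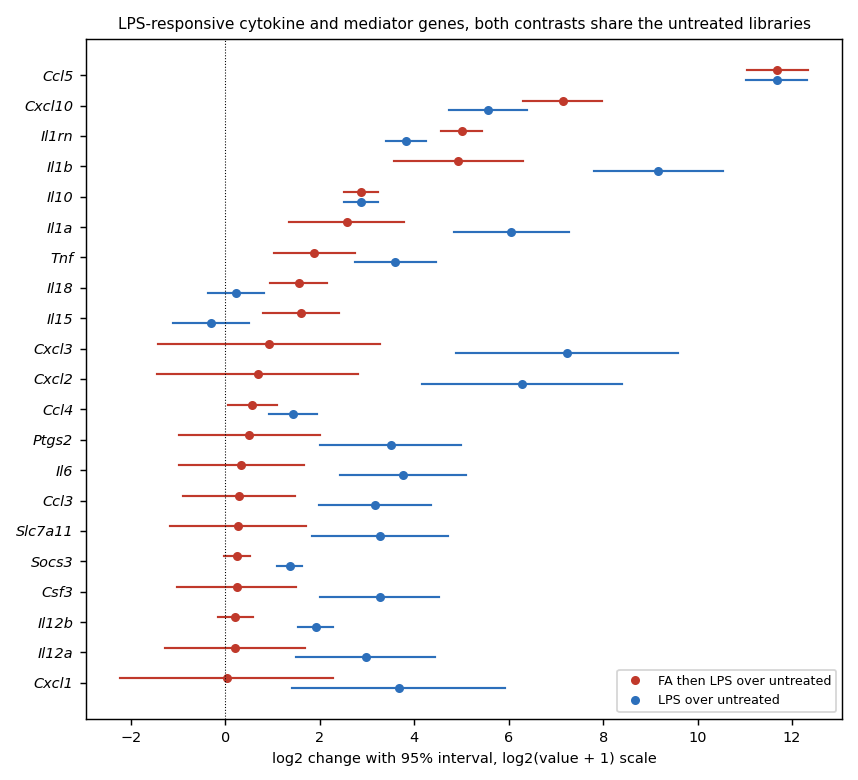
Log2 changes with 95% intervals on the log2(value + 1) scale for 21 cytokine and mediator genes, pretreated over untreated in red and LPS alone over untreated in blue; both use the same untreated libraries. The 2 intervals of Ccl5 and of Il10 lie on each other, those of Il1b and Cxcl3 are apart, and those of pretreated cultures for Cxcl1, Il6 and Ptgs2 include 0.

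Ptgs2, the inducible cyclooxygenase gene of prostaglandin synthesis, stood at 0.794, 0.344 and 0.549 in pretreated cultures, 51, 7.67 and 3.21 with LPS alone and 0.0587, 0.142 and 0.0805 in untreated cultures. It changed by 0.51 log2 units (95% interval -0.99 to 2.0, adjusted p = 0.545) over untreated and was lower than with LPS alone, at -3.0 log2 units (adjusted p = 0.00664), or -1.96 without LPS replicate 1 and -3.77 without LPS replicate 3. Slc7a11, the cystine importer and an NRF2 target, stood at 1.17, 0.862 and 0.756 in pretreated cultures, 60.02, 9.76 and 4.64 with LPS alone and 0.819, 0.468 and 0.529 in untreated cultures, with overlapping pretreated and untreated values (0.27 log2 units, 95% interval -1.17 to 1.71, adjusted p = 0.748) and a difference from LPS alone of -3.01 log2 units (adjusted p = 0.00547), or -2.02 without LPS replicate 1 and -3.74 without LPS replicate 3. Ppbp, the remaining tested CXCR2 ligand gene of the list, stood at 0.503, 0.422 and 0.686 in pretreated cultures, 9.93, 0.988 and 0.489 with LPS alone and 1.81, 1.27 and 1.23 in untreated cultures. Its change over untreated was -0.66 log2 units (95% interval -1.91 to 0.58, adjusted p = 0.334), which passed in the fit of 6 libraries (adjusted p = 0.00241). Ccl4, a chemokine gene for monocytes and lymphocytes, stood at 134, 96.7 and 100.5 in pretreated cultures, 299, 178 and 149.99 with LPS alone and 75.7, 75.3 and 69.7 in untreated cultures, a change of 0.56 log2 units (95% interval 0.05 to 1.08, adjusted p = 0.0576) over untreated, or of 0.88 (adjusted p = 0.00804) after scaling. Tlr2, the receptor for bacterial lipopeptides, stood at 2.94, 3.02 and 2.24 in pretreated cultures, 8.77, 5.901 and 4.59 with LPS alone and 2.72, 2.67 and 3.03 in untreated cultures, so pretreated and untreated values overlapped, and its difference from LPS alone was -0.96 log2 units (adjusted p = 0.00433).

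Cell division genes fell in both LPS groups. All 35 mitosis genes fell below untreated in both (median -3.99 with pretreatment and -3.9 with LPS alone), and against LPS alone the median difference was -0.05. Over all genes tested 44.9% fell with pretreatment. Of 33 DNA replication genes 31 fell (median -2.08), and 29 with LPS alone (median -2.0). The 10 largest falls under the naming rule were Ube2c, Ccnb2, Stmn1, Birc5, Cdca3, Prc1, Pbk, Top2a, Cdkn3 and Ccnb1. Ube2c (chromosome 2, 164769898 to 164778822), the ubiquitin-conjugating enzyme of the anaphase-promoting complex, stood at 0.107, 0.05604 and 0.105 in pretreated cultures, 1.23, 1.801 and 1.03 with LPS alone and 94.8, 96.6 and 95.3 in untreated cultures. Its change was -6.47 log2 units (95% interval -6.78 to -6.16, adjusted p = 1.20e-10), and it was lower than with LPS alone, at -1.1 log2 units (adjusted p = 0.000555). Ccnb2, a mitotic cyclin gene, stood at 0.0738, 0.142 and 0.114 in pretreated cultures, against 67.8, 61.5 and 60.4 in untreated cultures, a change of -5.85 log2 units (adjusted p = 2.43e-11). The topoisomerase gene Top2a stood at 2.71, 3.38 and 2.76 in pretreated cultures, 2.17, 4.61 and 4.51 with LPS alone and 101, 128 and 148 in untreated cultures, and its 2 LPS groups overlapped. Mki67, the proliferation antigen gene, changed by -4.18 log2 units (adjusted p = 5.71e-08), and Rrm2, which supplies deoxynucleotides, changed by -4.77 log2 units (adjusted p = 6.60e-08). In bulk RNA, fewer dividing cells and less RNA of these genes per cell cannot be told apart.

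Of 24 tested cholesterol synthesis genes, 23 fell with pretreatment (median -1.38) and 22 with LPS alone (median -1.2), where 44.9% and 47.9% of all genes tested fell. After scaling 22 fell with pretreatment, where 3052 of all 10476 genes tested did. The values of the 25 listed genes summed to 416, 440 and 422 in pretreated and 419, 419 and 474 in LPS-alone cultures. In untreated cultures they summed to 854, 825 and 539, so replicate 3 lay nearest the LPS groups. Fdps, the farnesyl diphosphate synthase gene (overlapped by Gm43738), stood at 8.12, 9.38 and 9.08 in pretreated cultures, 11.9, 10.6 and 10.04 with LPS alone and 60.9, 60.3 and 52.1 in untreated cultures. Both LPS groups lay well below untreated values, a change of -2.57 log2 units (adjusted p = 5.20e-08) with pretreatment, and they did not differ past the threshold (-0.26 log2 units, 95% interval -0.56 to 0.04, adjusted p = 0.156). Cyp51, of sterol demethylation, changed by -2.16 log2 units (adjusted p = 9.20e-09), and Hmgcs1, of the first committed steps, changed by -1.44 log2 units (adjusted p = 6.41e-08).

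A few lipid-handling genes stood above untreated in pretreated cultures and below it with LPS alone. Pltp, the phospholipid transfer protein gene (overlapped by Ctsa), stood at 95.1, 98.6 and 107 in pretreated cultures, 15.1, 15.1 and 23.8 with LPS alone and 33.2, 36.7 and 42.8 in untreated cultures. Its changes over untreated were 1.4 log2 units (adjusted p = 7.86e-05) with pretreatment and -1.05 log2 units (adjusted p = 0.000632) with LPS alone. Abcg1, a cholesterol exporter gene and LXR target, stood at 18.4, 17.2 and 16.9 in pretreated cultures, 3.49, 4.44 and 5.35 with LPS alone and 7.88, 10.9 and 10.99 in untreated cultures, with changes of 0.77 log2 units (adjusted p = 0.00131) and -1.01 log2 units (adjusted p = 0.000206). Apoc1, an apolipoprotein gene, changed by 1.08 log2 units (adjusted p = 1.49e-05) with pretreatment and -0.5 log2 units (adjusted p = 0.00357) with LPS alone. The direct differences of the 3 genes from LPS alone were 2.45, 1.78 and 1.58 log2 units (adjusted p = 6.53e-05, 0.000109 and 4.83e-05), and they were picked after their values were seen. Nr1h3, the gene of the sterol sensor LXR alpha, rose by 2.79 log2 units (adjusted p = 5.79e-06), and the exporter gene Abca1 by 0.92 log2 units (adjusted p = 0.000356). In the LXR list as a whole 6 of 16 tested genes rose and 8 fell, where 15.2% of all genes tested rose and 44.9% fell. After scaling 7 of the list rose and 5 fell, where 2858 and 3052 of all 10476 genes tested did. Apoe stood at 2004, 1544 and 1790.3 in pretreated cultures, 757, 558 and 609 with LPS alone and 2126, 2147 and 2635 in untreated cultures. The change of Apoe over untreated was -0.37 log2 units (95% interval -0.72 to -0.02, adjusted p = 0.0619), and -0.46 (adjusted p = 0.0437) without pretreated replicate 1. After median-ratio scaling it was -0.05 (adjusted p = 0.804). The lipid droplet coat gene Plin2 changed by 0.37 log2 units (95% interval -0.08 to 0.81, adjusted p = 0.138) over untreated, and by 0.69 (adjusted p = 0.0111) after scaling.

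Pf4 and Csf2ra showed the opposite order. Pf4, a CXC chemokine gene also used as a platelet marker, stood at 336, 274 and 252 in pretreated cultures, 2387, 1644 and 1569 with LPS alone and 1106, 816 and 1063 in untreated cultures, with changes over untreated of -1.79 log2 units (adjusted p = 7.59e-06) with pretreatment and 0.89 log2 units (adjusted p = 0.00124) with LPS alone. Csf2ra, the GM-CSF receptor alpha gene, stood at 10.6, 7.22 and 5.96 in pretreated cultures, 59.1, 44.9 and 40.02 with LPS alone and 17.2, 24.1 and 21.2 in untreated cultures, with changes of -1.31 log2 units (adjusted p = 0.000301) and 1.16 log2 units (adjusted p = 0.000712). No group overlapped another in either gene. Of 7 platelet markers 5, Pf4 not among them, stayed under 1 in all 9 libraries.

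Several uptake receptor and bridging protein genes fell less than with LPS alone. Of 17 tested dying-cell uptake genes, 12 fell and 2 rose over untreated, against 13 that fell with LPS alone, where 44.9% and 47.9% of all genes tested fell. After scaling 9 fell with pretreatment, where 3052 of all 10476 genes tested fell. Set against LPS alone, 9 were higher in pretreated than in LPS-alone cultures, where 21.8% of all genes tested were. The mannose receptor gene Mrc1 stood at 13.1, 17.3 and 15.9 in pretreated cultures, 3.82, 6.14 and 8.39 with LPS alone and 252, 325 and 305 in untreated cultures. It changed by -4.17 log2 units (adjusted p = 3.53e-08) over untreated and exceeded LPS alone by 1.25 log2 units (adjusted p = 0.00171). Gas6, the bridge between dying cells and TAM receptors, changed by -4.1 log2 units (adjusted p = 3.53e-08) and exceeded LPS alone by 0.91 log2 units (adjusted p = 0.00666). Cd5l, a secreted scavenger protein gene, stood at 24.3, 24.5 and 25.3 in pretreated cultures, 1.17, 2.01 and 2.95 with LPS alone and 77.9, 70.6 and 90.6 in untreated cultures, with pretreated values between the other groups. Mfge8, a bridge to integrins, was lower in pretreated than in LPS-alone cultures (-0.88 log2 units, adjusted p = 0.000749), and lay below untreated, at -2.19 log2 units (adjusted p = 6.82e-08). Cd9, a tetraspanin gene, stood at 12.5, 12.4 and 11.2 in pretreated cultures, 83.6, 37.8 and 26.3 with LPS alone and 291, 274 and 229 in untreated cultures, lower than untreated, at -4.34 log2 units (adjusted p = 6.34e-07) and lower than LPS alone, at -1.78 log2 units (adjusted p = 0.00229). Of 16 genes of lipid-associated macrophages, which are named for cells of fat tissue, 14 fell over untreated (11 after scaling) and 12 with LPS alone. Of 21 genes of fatty acid oxidation and PPAR targets, 15 fell (12 after scaling, when 4 rose), and 15 fell with LPS alone. The fatty acid carrier gene Fabp4 changed by -3.46 log2 units (adjusted p = 1.35e-08), and the fatty acid translocase gene Cd36 changed by -1.89 log2 units (adjusted p = 2.40e-05), over untreated.

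**Figure D4:**
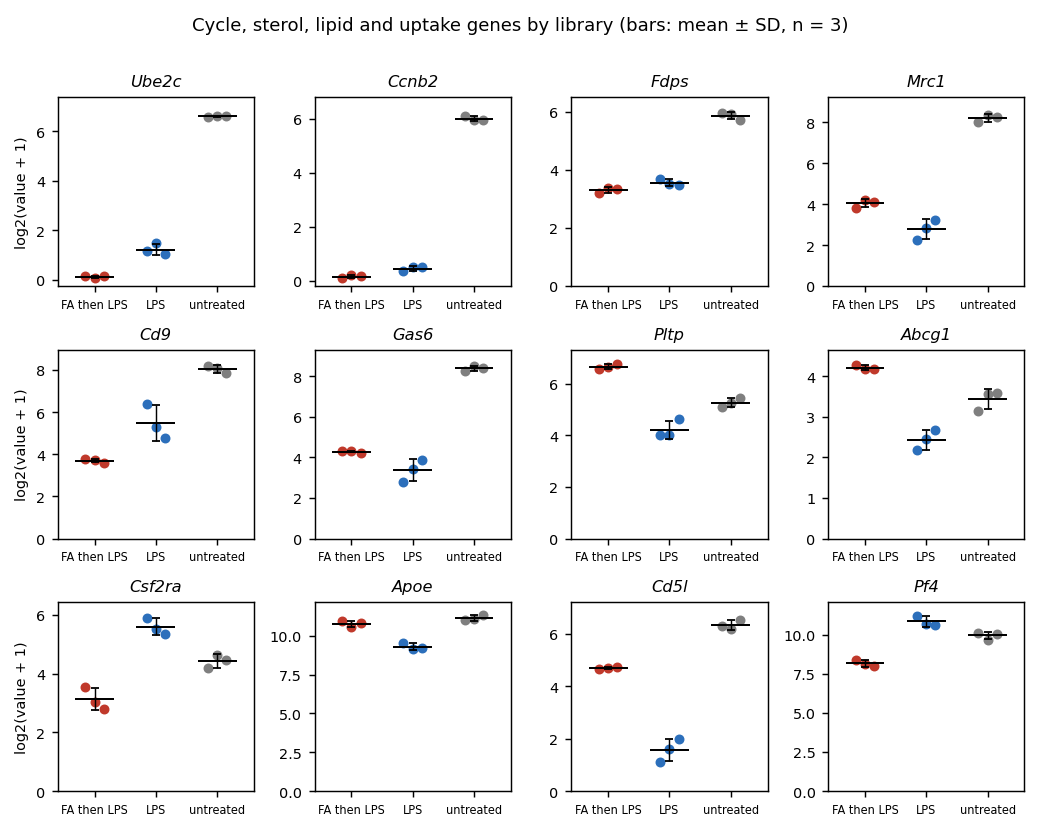
Log2(value + 1) of 12 cycle, sterol, lipid and uptake genes in each library, with pretreated, LPS-alone and untreated groups from left to right; points are libraries, horizontal bars means and error bars SDs (n = 3). Ube2c, Ccnb2 and Fdps are low in both LPS groups, Pltp and Abcg1 are highest in pretreated cultures, and Pf4 is lowest there.

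The calls of several metabolic groups depended on scaling between libraries. Unscaled counts are read against the 15.2% of all genes that rose and the 44.9% that fell. Counts after scaling are read against the 2858 of all 10476 genes tested that rose and the 3052 that fell after scaling. Glycolysis and hypoxia genes numbered 4 higher and 8 lower of 25 over untreated, and 9 and 4 after scaling; without untreated replicate 1, or without pretreated replicate 3, 5 were lower. NRF2 target genes of the antioxidant response numbered 2 higher and 5 lower of 15, and 4 and 3 after scaling, while with LPS alone 8 were higher; 3 were lower with pretreatment in each fit without untreated replicate 1, 2 or 3 or without pretreated replicate 2 or 3. Pfkfb3, which drives glycolytic flux, stood at 132, 109 and 102 in pretreated cultures, 72.1, 77.2 and 122 with LPS alone and 9.23, 11.3 and 10.1 in untreated cultures and rose by 3.36 log2 units (adjusted p = 6.15e-08). Nuclear respiratory chain genes numbered 2 higher and 15 lower of 29, and 6 and 8 after scaling. Of 22 ER stress genes 12 were lower, and 6 after scaling. The shares of both groups that were lower are near that of all genes. Cytosolic ribosomal protein genes fell in 26 of 28 (median -1.0; 24 after scaling), 23 fell with LPS alone (4 after scaling), and 21 were lower than with LPS alone. Of all genes tested, 15.3% were lower than with LPS alone. Rplp1 stood at 345, 265 and 240.02 in pretreated cultures, 653, 574 and 535 with LPS alone and 1008, 907 and 922 in untreated cultures, lower than LPS alone, at -1.06 log2 units (adjusted p = 0.000608); ribosomal protein genes have many processed copies, so single values are uncertain.

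Markers of other cell types were given as summed values. The 15 stromal markers, of which Lum was at 0 in all 9 libraries, summed to 31.7 to 37.39 in pretreated, 54.51 to 106.4 in LPS-alone and 36.07 to 51.19 in untreated cultures. The 15 neutrophil markers summed to 146.5 to 158.1 in pretreated, 190.9 to 561.6 in LPS-alone and 110.4 to 123.3 in untreated cultures, and 7 of them stayed under 1 throughout. Both sums were higher with LPS alone than with pretreatment, beside the neutrophil-attracting chemokines, and their part in those results was not tested. The dendritic cell list summed to 977.7 to 1274 in pretreated, 628.7 to 1122 in LPS-alone and 122.3 to 132.8 in untreated cultures, with 9 of its 10 genes under 1 in all 9 libraries and the sum resting on Bst2, itself interferon-induced. The T cell markers Cd3e and Cd3g, the B cell marker Pax5 and the natural killer markers Ncr1 and Prf1 were at 0 in all 9 libraries. The 10 T cell markers summed to 0.939 to 1.21 in pretreated, 0.18 to 0.695 in LPS-alone and 6.27 to 8.52 in untreated cultures, and the 9 B cell markers to 2.07 to 2.74, 0.0576 to 0.457 and 7.6 to 8.5 in the same order. The 7 natural killer markers summed to 0.436 to 0.666 in pretreated, 0.00427 to 0.0235 in LPS-alone and 0 to 0.0154 in untreated cultures, and none of the 7 passed the filter on low values. The part of these sums in the results was not tested.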

How the data were processed

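RNA sequencing of bone marrow-derived macrophages gave 1 table of deposited values per gene and library for the fatty acid experiment. The authors' unit is not given in the sources used here; it is treated as another expression value that depends on gene length, not as a read count, so depth and counting intervals cannot be given. Per the submitters' processing notes, CASAVA 1.8.2, Trim Galore 0.4.1, FastQC 0.11.5 and HISAT2 2.0.5 were used and the builds mm10 and mm9 are named; the deposited coordinates match GRCm38, and the counting tool and its use of strand are not given. Of 50645 gene IDs 50336 had a symbol, and 36 displaced entries of 17 IDs were left out.

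Values were taken to log2(value + 1), genes at 1 or more in at least 3 of 12 libraries were kept (10476), and limma 3.58.1 in R 4.3.3 fitted all 12 libraries, of which the 3 that also received TAK242 enter only the spread, with a mean-variance trend, with Benjamini-Hochberg adjustment over those genes. Each contrast used 3 libraries a group, and p-values are two-sided. Tables were handled with Python 3.11.15 and pandas 2.3.3. Genes were named as the 10 largest rises and 10 largest falls over untreated with a mean of at least 10 in the higher group, and by lists; the members and lists were chosen with earlier results of these data known. Same-numbered libraries of the groups compared were not correlated above 0.1, so replicate numbers were not used as pairs. Alternatives were no filter, a minimum of 5, a pseudocount of 0.1, the 6 compared libraries only, median-ratio scaling, a replicate block and leaving out each library.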

Additional observations from a re-analysis of the deposited data

How the results depend on the processing

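Pretreated against untreated cultures gave 6295 calls, and between 5630 and 6064 when 1 library was left out; with LPS alone against untreated the range was 5872 to 6357 around 6463, and with pretreated against LPS alone 2922 to 4089 around 3893. With a minimum of 5, 3106 genes were lower in pretreated than in untreated cultures, and LPS alone gave 4303 calls over untreated, 3213 of them lower. Median-ratio scaling gave 2858 higher and 3052 lower genes for pretreated over untreated and 2847 and 2822 for LPS alone over untreated; the share of calls that were higher moved to 48.4% with scaling, against 25.3% without, for pretreated over untreated and to 50.2% against 22.3% for LPS alone over untreated. For pretreated over LPS alone, scaling gave 2084 higher and 2084 lower. The libraries share only a replicate number: the correlations of same-numbered deviations were 0.052, 0.018 and 0.027 between pretreated and untreated cultures, and fits with the replicate number as a block gave 6201, 6364 and 3716 calls for the 3 comparisons. The block changed no named call other than that of Apoe over untreated (-0.37, adjusted p = 0.05). The difference between pretreated and LPS-alone cultures changed sign for Ccl5, at -0.05 after scaling, -0.25 without LPS replicate 1, -0.23 and -0.10 without pretreated replicate 1 or 2 (range -0.25 to 0.37 over single libraries left out), and for Il10, at 0.14 without LPS replicate 1, 0.05 without pretreated replicate 2 and 0.04 without pretreated replicate 3 (range -0.17 to 0.14); neither passed the threshold. Cxcl1 no longer passed between these groups without a filter (adjusted p = 0.0568) or with 6 libraries (0.0831), nor did Lcn2 with 6 libraries (0.0507); the cause was not tested. The number of libraries, 3 a group, limits the precision, values under 1 are compressed by the pseudocount, and depth is unknown.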

Other observations

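Genes of other groups changed over untreated cultures as well, where 15.2% of all genes tested rose and 44.9% fell. Hmox1, which degrades heme, stood at 1966, 1653 and 1573 in pretreated cultures, 2019, 1685 and 1949.6 with LPS alone and 502, 504 and 391 in untreated cultures and rose by 1.9 log2 units (adjusted p = 4.73e-07), with overlapping LPS groups. Of 5 metallothionein and zinc transport genes 3 fell and 1 rose, the same counts as with LPS alone. Mt1, a zinc buffer, stood at 49.9, 39.8 and 40.8 in pretreated cultures, 111, 52.3 and 47.8 with LPS alone and 293, 265 and 267 in untreated cultures, a change of -2.64 log2 units (adjusted p = 5.13e-06). Of 16 inflammasome genes 11 rose and 1 fell, and Casp1, the interleukin 1 beta protease gene, stood at 208, 193 and 189 in pretreated cultures, 109, 124 and 153 with LPS alone and 51.04, 54.2 and 55.2 in untreated cultures, above LPS alone by 0.62 log2 units (adjusted p = 0.00288). The scavenger receptor gene Marco stood at 3055, 2783 and 2629.8 in pretreated cultures, 2496, 3226 and 3693 with LPS alone and 453, 423 and 484 in untreated cultures, a rise of 2.64 log2 units (adjusted p = 5.00e-08) over untreated.

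Prostaglandin and leukotriene genes moved both ways. Ptges, the inducible prostaglandin E synthase gene, rose by 3.28 log2 units (adjusted p = 5.21e-07) over untreated and was lower than with LPS alone, at -1.52 log2 units (adjusted p = 0.001199). The leukotriene synthase gene Ltc4s stood at 1.04, 0.703 and 0.809 in pretreated cultures, 5.498, 2.63 and 1.58 with LPS alone and 31.9, 31.7 and 27.1 in untreated cultures, a change of -4.08 log2 units (adjusted p = 1.96e-07). Among lysosomal genes 5 rose and 18 fell of 29, where 15.2% and 44.9% of all genes tested did. After scaling 8 rose and 13 fell, where 2858 and 3052 of all 10476 genes tested did. Atp6v0d2, a proton pump subunit gene, changed by -3.47 log2 units (adjusted p = 1.04e-09). Legumain, Lgmn, stood at 746, 737 and 733 in pretreated cultures, 125, 248 and 395 with LPS alone and 752, 696 and 757 in untreated cultures; its pretreated and untreated values overlapped, and it exceeded LPS alone by 1.67 log2 units (adjusted p = 0.003).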
